A study of Mus musculus with 16 samples.

Results

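Microglia, the resident macrophages of the brain, were set against astrocytes across all protein-coding genes, each population sorted from the same 4 mouse brains. The members are the 4 libraries whose label gives the cell type Microglia and the 4 labelled Astrocytes, which makes 8 of the 16 libraries of the series; the rest are sorted neurons and input. Microglia were sorted as CD11b+ live cells and astrocytes as EAAT2+ live cells, and in both sorts gates left out cells positive for O1 or CD31. All animals were male C57BL/6 mice of wildtype genotype with no treatment labelled, and their age is not given in the sources used here. The animals are numbered 2, 3, 4 and 5, each gave 1 library per cell type, and values of 4 libraries are printed below in that order of animals. RNA was read at the 3' end of the transcripts with molecular identifiers, and the deposited values are counts per gene.

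Microglia descend from yolk sac progenitors, depend on signalling through the receptor Csf1r, survey the tissue with motile processes and clear debris and synapses. Astrocytes arise from radial glia, cover synapses and vessels with their processes, remove glutamate and potassium from the extracellular space and supply lipids and metabolites to neurons. CD11b is the product of Itgam, an integrin subunit of myeloid cells, and EAAT2 is the product of Slc1a2, the main glutamate transporter of the forebrain.

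Promoter sequences are shown first for 5 genes that carry the contrast, from RefSeq on GRCm38.p6 and on the strand of the gene. Each runs from 250 bases before the transcription start to 50 bases after it. Cx3cr1 (a chemokine receptor), Ctss (cathepsin S) and Cd37 (a leukocyte tetraspanin) were higher in microglia, and Slc1a2 and Mt3 (metallothionein 3) were lower. Capitals mark the letters GAGGAAGT, the type of ETS site that the myeloid factor PU.1 binds, searched on both strands. The nuclear factor I palindrome, TTGGC and GCCAA with 5 bases between them, was searched too and occurs in none of the 5.
Cx3cr1, chr9:120068247-120068546 (minus strand): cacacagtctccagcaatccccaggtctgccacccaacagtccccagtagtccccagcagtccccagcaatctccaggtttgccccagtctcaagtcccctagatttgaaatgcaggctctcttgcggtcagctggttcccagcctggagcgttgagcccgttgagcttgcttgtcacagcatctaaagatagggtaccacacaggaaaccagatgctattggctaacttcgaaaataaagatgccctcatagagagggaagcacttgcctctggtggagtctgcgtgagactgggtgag
Ctss, chr3:95526536-95526835 (plus strand): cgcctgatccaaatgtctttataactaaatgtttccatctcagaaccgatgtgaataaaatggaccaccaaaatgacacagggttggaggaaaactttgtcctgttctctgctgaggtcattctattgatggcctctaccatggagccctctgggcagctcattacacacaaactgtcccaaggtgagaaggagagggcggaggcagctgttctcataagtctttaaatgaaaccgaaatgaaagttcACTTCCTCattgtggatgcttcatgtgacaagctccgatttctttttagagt
Cd37, chr7:45238790-45239089 (minus strand): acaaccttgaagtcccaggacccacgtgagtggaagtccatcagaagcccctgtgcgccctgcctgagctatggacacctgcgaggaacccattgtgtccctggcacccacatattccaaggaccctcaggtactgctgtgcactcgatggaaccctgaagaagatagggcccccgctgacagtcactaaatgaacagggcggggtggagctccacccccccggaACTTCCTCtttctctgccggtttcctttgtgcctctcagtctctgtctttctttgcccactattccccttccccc
Slc1a2, chr2:102706188-102706487 (plus strand): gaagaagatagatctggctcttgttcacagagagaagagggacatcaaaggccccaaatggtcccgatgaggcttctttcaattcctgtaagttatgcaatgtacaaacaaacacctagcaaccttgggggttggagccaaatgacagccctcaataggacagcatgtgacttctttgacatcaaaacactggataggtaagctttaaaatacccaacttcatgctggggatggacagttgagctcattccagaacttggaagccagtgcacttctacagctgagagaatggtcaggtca
Mt3, chr8:94152357-94152656 (plus strand): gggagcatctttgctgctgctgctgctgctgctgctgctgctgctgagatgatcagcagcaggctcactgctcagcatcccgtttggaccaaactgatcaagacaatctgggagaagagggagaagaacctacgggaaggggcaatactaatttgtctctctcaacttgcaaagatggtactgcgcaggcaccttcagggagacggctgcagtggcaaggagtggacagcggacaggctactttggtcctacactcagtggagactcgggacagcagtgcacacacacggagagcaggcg

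The letters GAGGAAGT were found in the printed promoters of Ctss and Cd37 and not in those of Cx3cr1, Slc1a2 and Mt3. Where a gene had several promoters, the first listed was printed. The printed windows of Cx3cr1, Cd37 and Slc1a2 lie inside the annotated gene spans. That of Slc1a2 lies furthest inside, in a span that begins at chr2:102658659. They stand in 3.2% of the 32851 promoters of the table, and in 3.09% of the 9512 promoters of genes tested here. Among promoters of genes called higher in microglia the share was 4.93% (115 of 2331), and among promoters of genes called lower it was 1.69% (42 of 2492). Of the 15 genes with the largest differences in each direction, 11 of the higher and 10 of the lower had a promoter in the table, and Cd37 was the 1 gene among them that held the letters. The nuclear factor I palindrome stood in 12 promoters of the whole table and in 0 of either set of largest differences. These counts describe letters in a window and carry no test. In 8 genes higher in microglia the letters lie within 30 bases of the transcription start, and they are aligned here on the strand that reads GAGGAAGT, with 10 bases on each side. The 8 were chosen after their values were seen, and where a gene had several promoters, the first that held the letters was taken. Inpp5d is a lipid phosphatase, Vav1 an exchange factor for Rac, P2rx7 an ATP-gated channel, Adora3 an adenosine receptor, Tlr1 a Toll-like receptor and Pf4 a chemokine of border macrophages.
Ctss, chr3:95526774-95526801 (minus strand): catccacaatGAGGAAGTgaactttcat
Cd37, chr7:45238847-45238874 (plus strand): ggcagagaaaGAGGAAGTtccggggggg
Inpp5d, chr1:87620282-87620309 (plus strand): tttctataatGAGGAAGTtctgtgcagc
Vav1, chr17:57279079-57279106 (plus strand): agtcacagaaGAGGAAGTggtgttgtag
P2rx7, chr5:122650376-122650403 (minus strand): accaccagggGAGGAAGTgactcgaagc
Adora3, chr3:105904381-105904408 (minus strand): gatagtccaaGAGGAAGTacaggaaccc
Tlr1, chr5:64933564-64933591 (minus strand): ttaaatgttgGAGGAAGTaggagcttga
Pf4, chr5:90772415-90772442 (minus strand): gatacaggatGAGGAAGTgctctgcaga

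The letters start 2 bases before the annotated start of Ctss, 25 before that of Cd37, 20 before that of Inpp5d, 11 before that of Vav1, 30 before that of Adora3, 23 before that of Tlr1 and 10 before that of Pf4, and at base 4 after that of P2rx7. Inpp5d had a log2 fold change of 3.29 ± 0.36, Vav1 of 3.47 ± 0.43, P2rx7 of 2.20 ± 0.32, Adora3 of 3.87 ± 0.49, Tlr1 of 2.91 ± 0.63 and Pf4 of 2.81 ± 0.49, each written with its standard error. Without astrocytes 3, Tlr1 stood at 3.56, and without astrocytes 5, Pf4 stood at 3.68.

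Total counts ran from 191236 to 1413564 in microglia libraries and from 211087 to 710828 in astrocyte libraries. CPM are counts scaled to a common library total, with the total corrected by the trimmed mean of M-values (TMM). Values are not divided by gene length, since a 3' library gives each transcript its end. Across genes, log2(CPM + 1) correlated at 0.746 to 0.962 between microglia libraries, at 0.715 to 0.908 between astrocyte libraries and at 0.421 to 0.530 between libraries of the 2 groups. The 3 shallowest libraries stood apart. The summed level of 20 microglia markers, with values in the order of animals, was 68130, 54000, 83920 and 69470 CPM in microglia and 3521, 10810, 3757 and 10850 CPM in astrocytes. Astrocytes 3 and 5 thus held 15.7% and 15.8% of the mean sum of the microglia libraries, and astrocytes 2 and 4 held 5.11% and 5.45%. The summed level of 23 astrocyte markers was 12720, 7387, 4992 and 5725 CPM in microglia and 108100, 69570, 100200 and 78800 CPM in astrocytes, and microglia 2 held 14.3% of the mean of the astrocyte libraries, against 5.6% to 8.29% in the other microglia libraries. No marker of either list was at 0 over the 4 libraries of the other cell type. In bulk libraries such as these, fewer cells of a type and less RNA per cell cannot be told apart.

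**Figure D1:**
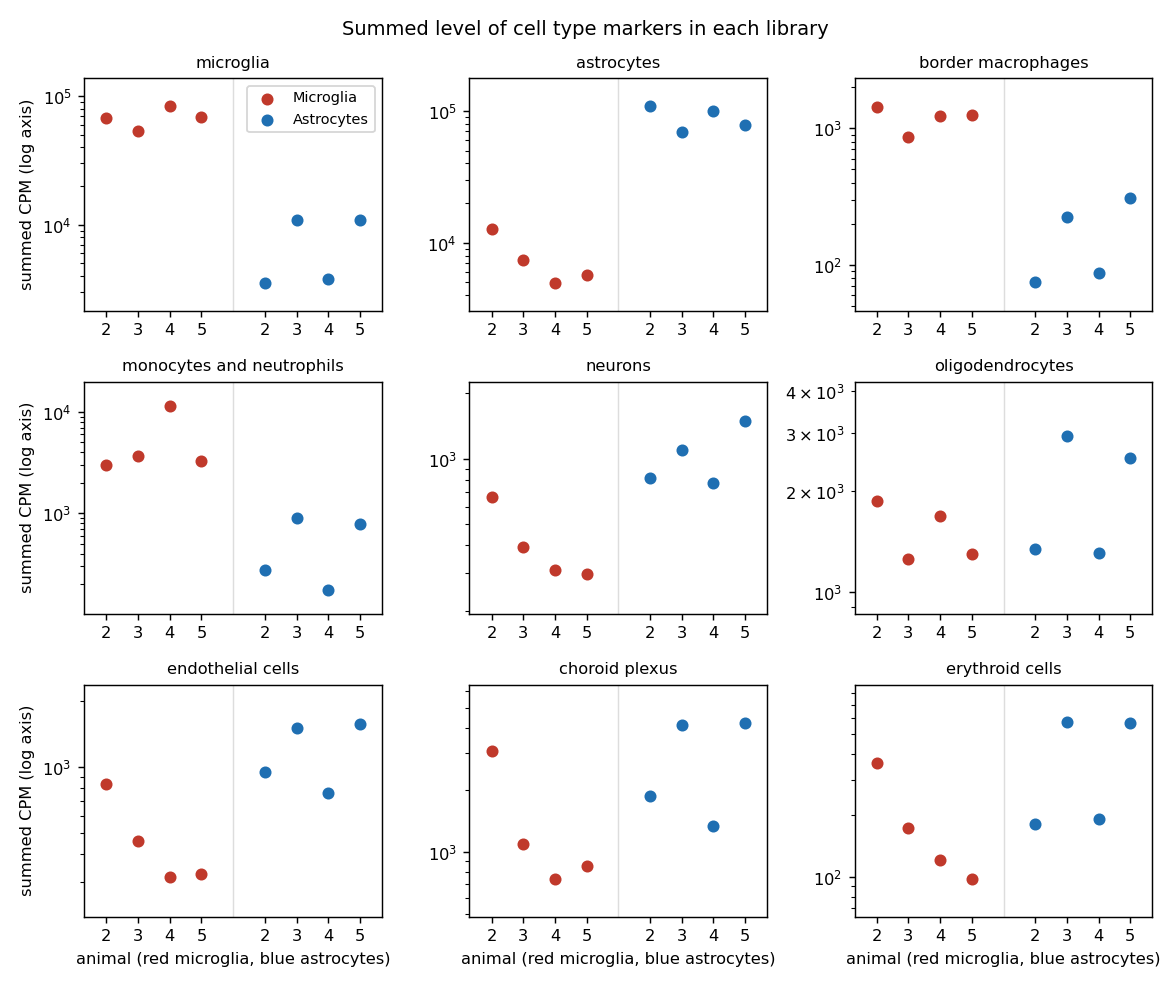
Summed CPM (log axis) of marker lists in each library, with microglia libraries left of astrocyte libraries and 1 point per library. Astrocytes 3 and 5 hold 10810 and 10850 CPM of microglia markers, against 3521 and 3757 CPM in astrocytes 2 and 4, and the same libraries are high in several lists of other cell types.

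Of 22058 protein-coding genes, 9091 had enough counts to be tested. Microglia were higher at 2158 genes (23.7%) and lower at 2371 (26.1%) at an adjusted p under 0.05 (edgeR quasi-likelihood test with Benjamini-Hochberg adjustment over the 9091 genes). The 4 microglia libraries lay above all 4 astrocyte libraries at 1682 genes (18.5%) and below them at 1709 (18.8%), together 3391 (37.3%). Differences past 16-fold were called at 96 genes higher in microglia and at 321 lower in microglia. The median log2 fold change over all tested genes was -0.02. At 1070 genes (11.8%) the 95% interval of the fold change lay within 2-fold either way, and at 3492 genes without a call the interval reached past 2-fold, so that neither a like level nor a 2-fold difference can be stated there. Both the sizes of the differences and the calls moved without the 3 shallow libraries. Of the 4529 calls 4050 were made again there, and 2593 genes were higher and 2593 lower among 11098 tested. Without microglia 2 and astrocytes 3 and 5, a choice made after seeing the data, the median log2 fold change of the 20 microglia markers was 4.50 in place of 3.47, and that of the 23 astrocyte markers was -4.73 in place of -4.04. Of the 197 called genes named in the text, 86 moved by over 1.5 times in that fit, against 1 to 13 when a single library was left out.

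**Figure D2:**
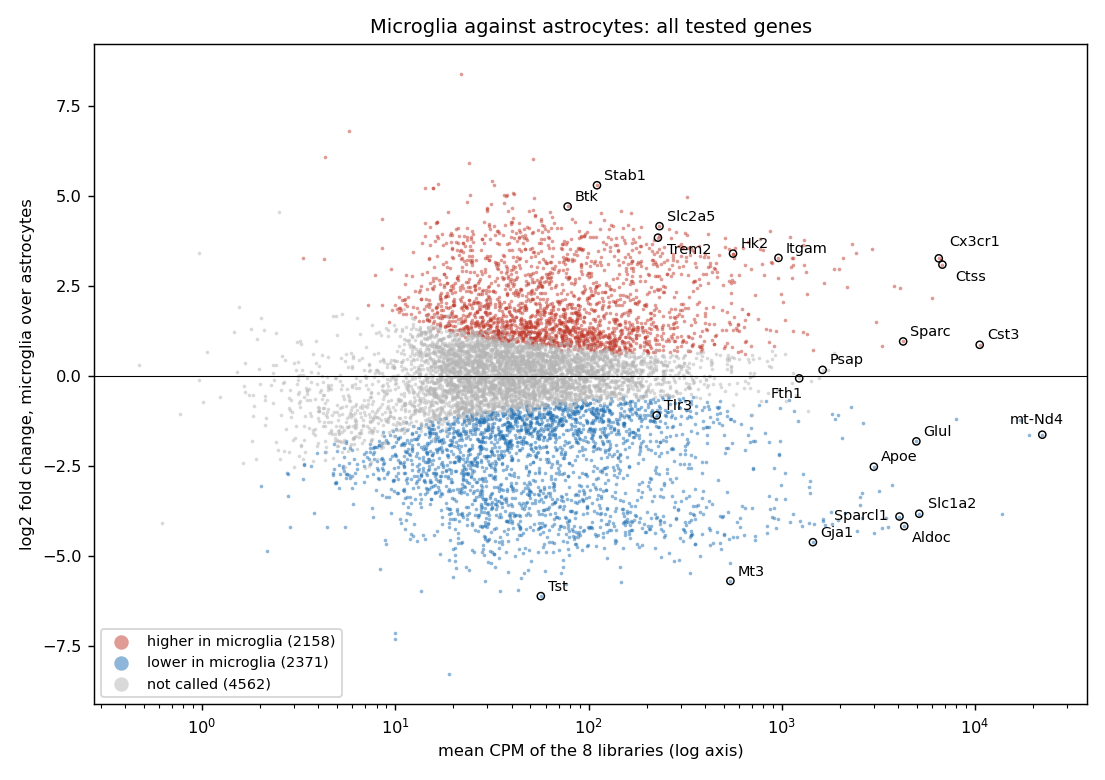
Log2 fold change of microglia over astrocytes (vertical axis) against the mean CPM over the 8 libraries (horizontal log axis) for the 9091 tested genes. Coloured points are the 2158 genes called higher and the 2371 called lower in microglia, and the labelled genes are named in the text.

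The markers of both sorts went with their labels. All 20 tested microglia markers were higher in microglia and all 23 astrocyte markers were lower, against 23.7% and 26.1% of all tested genes. Neither list had a member whose libraries overlapped between the groups, and 37.3% of all tested genes were without overlap. These markers and all lists below were chosen with earlier results of these data known, so their counts describe the chosen genes only. Cx3cr1, the receptor for fractalkine (gene ENSMUSG00000052336, chr9:119901616-120069879), stood at 11610, 9730, 12830 and 12810 CPM in microglia and 614, 1910, 611 and 1783 CPM in astrocytes. Every microglia library lay above every astrocyte library, and astrocytes 3 and 5 were the higher ones of their group. The log2 fold change was 3.27 ± 0.43 (edgeR adjusted p = 1.24e-07). Ctss, a cathepsin of lysosomes and antigen processing (gene ENSMUSG00000038642, chr3:95526786-95556403), stood at 12620, 7257, 15790 and 12810 CPM in microglia and 586, 2261, 693 and 2184 CPM in astrocytes. The groups did not overlap, microglia 3 was the lowest of the microglia libraries, and the log2 fold change was 3.09 ± 0.44 (edgeR adjusted p = 5.53e-07).

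Slc1a2 (gene ENSMUSG00000005089, chr2:102658659-102790784) stood at 1211, 709, 345 and 455 CPM in microglia and 10600, 8543, 9901 and 9361 CPM in astrocytes. All microglia libraries were far below the astrocyte libraries, and microglia 2 was the highest among them. The log2 fold change was -3.83 ± 0.43 (edgeR adjusted p = 9.04e-09). Aldoc, the brain form of the glycolytic enzyme aldolase (gene ENSMUSG00000017390, chr11:78322968-78327781), stood at 959, 429, 188 and 263 CPM in microglia and 10600, 6533, 8746 and 6687 CPM in astrocytes. The order of the libraries was that of Slc1a2 in microglia, and the log2 fold change was -4.18 ± 0.44 (edgeR adjusted p = 2.82e-09). Within the astrocyte list the differences ran from -1.82 for Glul (glutamine synthetase) to -5.70 for Mt3. Glul kept 25.5% to 30.0% of the mean astrocyte level in every microglia library. Mt3 stood at 35.3, 18.1, 8.88 and 27.0 CPM in microglia and 1534, 503, 1452 and 758 CPM in astrocytes, far apart in every library.

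Of the other genes behind the sort reagents, Itgam was higher in microglia, Thy1 and Ugt8a were lower and Pecam1 did not pass the test. Itgam stood at 1363, 1352, 2368 and 1850 CPM in microglia and 72.5, 332, 64.4 and 285 CPM in astrocytes, without overlap, and its log2 fold change was 3.28 ± 0.44 (edgeR adjusted p = 1.71e-07). Thy1, which codes for the antigen of the neuron sort, stood at 50.5, 16.5, 8.88 and 7.12 CPM in microglia and 55.8, 35.2, 56.1 and 107 CPM in astrocytes. Microglia 2 overlapped with the astrocyte range, and the log2 fold change was -2.13 ± 0.45 (edgeR adjusted p = 0.000192). Ugt8a, which makes galactosylceramide, the lipid class of the O1 antigen, stood at 20.2, 6.60, 13.8 and 9.96 CPM in microglia and 8.37, 60.3, 13.2 and 49.0 CPM in astrocytes, with astrocytes 3 and 5 the highest of the 8. It was lower in microglia at -1.26 ± 0.51 (edgeR adjusted p = 0.0393), and without astrocytes 3 and 5 its sign turned, at 0.03 (edgeR adjusted p = 0.971). With animal as a block its adjusted p was 0.051 (edgeR). It also lost its call without any 1 of astrocytes 3 and 5 and microglia 3, 4 and 5 (-0.75 to -1.36, edgeR adjusted p 0.0531 to 0.245). Pecam1, which codes for CD31, stood at 25.2, 18.1, 30.6 and 29.9 CPM in microglia and 5.58, 25.1, 14.9 and 22.3 CPM in astrocytes, and the difference of 0.78 ± 0.43 did not pass the test (edgeR adjusted p = 0.127). Without astrocytes 3 and 5 Pecam1 was called higher at 1.28 (edgeR adjusted p = 0.0381), and without microglia 2 as well at 1.30 (edgeR adjusted p = 0.0315).

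**Figure D3:**
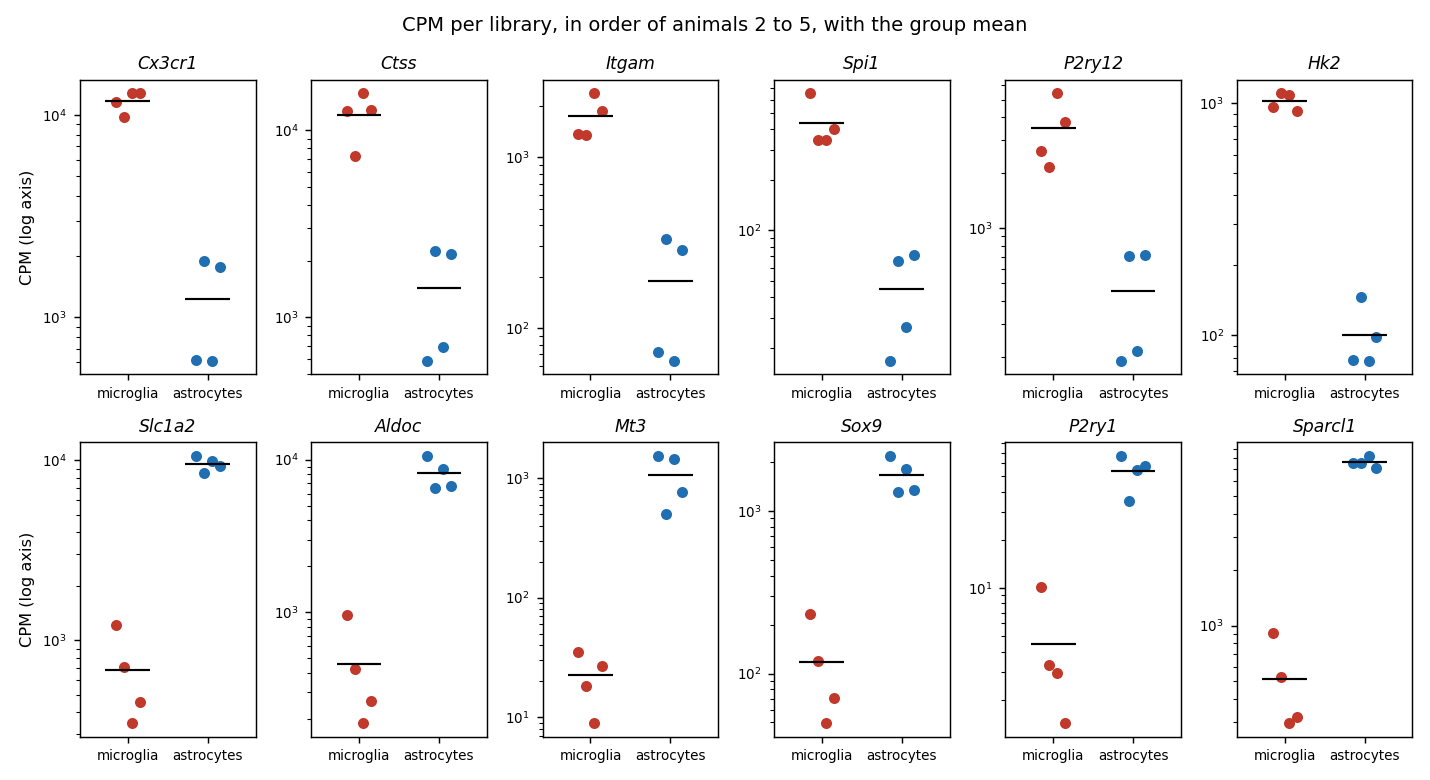
CPM (log axis) of 12 genes in each library, with the 4 microglia libraries left of the 4 astrocyte libraries, 1 point per library and a bar at the group mean. Cx3cr1, Ctss, Itgam and the other genes of the upper row lie higher in microglia without overlap, and Slc1a2, Aldoc, Mt3 and the other genes of the lower row lie lower.

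The 15 largest log2 fold changes toward microglia among abundant genes without overlap ran from 4.38 to 5.30. Stab1, a scavenger receptor, averaged 217 ± 65.0 CPM in microglia and 4.14 ± 5.48 CPM in astrocytes (SD, n = 4 each, here and below). It was listed at 0 in astrocytes 2 and 5, and the log2 fold change was 5.30 ± 0.51. The transcription factors Pou2f2 (4.98 ± 0.39) and Elf4 (4.94 ± 0.60) and the kinase Btk (4.71 ± 0.53), which acts below antigen and Fc receptors, followed. Btk averaged 149 ± 80.3 CPM in microglia and 6.68 ± 3.39 CPM in astrocytes. Further down stood Galnt12, which starts O-glycans (4.68), Tmem273 (4.59), the Nogo receptor relative Rtn4rl1 (4.59), the GTPase-activating protein Gmip (4.58), Lst1 (4.56) and Cd84, a receptor of the SLAM family (4.53). Cmtm7 (4.52), Cd37 (4.48), the G-CSF receptor Csf3r (4.45), the leukotriene enzyme Ltc4s (4.41) and the matrix protease Mmp9 (4.38) closed the 15. These log2 fold changes rank the genes and carry edgeR adjusted p from 3.45e-11 to 1.88e-06, and lack of overlap was a condition of the choice. Csf3r was listed at 0 in astrocytes 2, 3 and 4 and at 26.8 CPM in astrocytes 5. Without astrocytes 5 the log2 fold change was 5.83 for Cd37, 5.27 for Cd84, 5.69 for Elf4, 5.66 for Gmip, 5.48 for Mmp9 and 5.31 for Rtn4rl1, and none is given for Csf3r, whose other astrocyte libraries are all at 0. Without astrocytes 4 it was 7.32 for Stab1, 3.84 for Tmem273 and 3.71 for Csf3r, and without astrocytes 3 it was 5.40 for Tmem273. The 7.32 of Stab1 rests on 5.025 CPM in astrocytes 3, which is 1 count.

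Other genes with at least 50 CPM in microglia had 3 or fewer counts over the 4 astrocyte libraries, and for those a ratio of pooled counts is given. Tlr12, a Toll-like receptor, had 341 counts in microglia and 2 in astrocytes, a ratio of 83.5 (95% interval 22.9 to 692). Cd300a, an inhibitory receptor, had 250 counts in microglia and 2 in astrocytes, a ratio of 61.2 (95% interval 16.8 to 508). Socs3, a feedback inhibitor of cytokine signalling, had 275 counts in microglia and 3 in astrocytes, a ratio of 44.9 (95% interval 15.2 to 219). Gpr84, a receptor for medium-chain fatty acids, had 189 counts in microglia and 3 in astrocytes, a ratio of 30.9 (95% interval 10.4 to 151). Itgb3, an integrin subunit, had 217 counts in microglia and 3 in astrocytes, a ratio of 35.4 (95% interval 11.96 to 173). These ratios rest on single counts in single libraries. Of the 3 astrocyte counts of Socs3, 2 were in astrocytes 3 and 1 in astrocytes 5, and the ratio was 117 without astrocytes 3, 33.0 without astrocytes 2 and 24.9 without astrocytes 4. Leaving out 1 astrocyte library gave ratios of 46.2 to 145 for Tlr12, 45.0 to 106 for Cd300a, 17.1 to 78.2 for Gpr84 and 29.4 to 46.1 for Itgb3. No gene with at least 50 CPM in microglia was at 0 in all astrocyte libraries, among 3935 such genes, and none of 3945 with at least 50 CPM in astrocytes was at 0 in all microglia libraries. The intervals cover counting error only.

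The 15 largest differences toward astrocytes ran from -5.21 to -6.13 on the log2 scale. They were taken among abundant genes without overlap and with more than 3 counts over the microglia libraries. The genes among them that are described here follow in order. Tst, a mitochondrial sulfur transferase, averaged 1.10 ± 1.41 CPM in microglia and 112 ± 56.2 CPM in astrocytes and was listed at 0 in microglia 2 and 3 (log2 fold change -6.13 ± 0.61). Ppp1r3g, a glycogen-targeting subunit of protein phosphatase 1 (-5.95 ± 0.68), and Slc25a18, a mitochondrial glutamate carrier (-5.73 ± 0.42), also stood near that end. Slc25a18 averaged 5.72 ± 2.95 CPM in microglia and 289.7 ± 85.3 CPM in astrocytes. Smaller differences than that of Mt3 were those of Sfrp5, a Wnt antagonist (-5.49), Rgs20 (-5.48), Hhatl (-5.47), the hyaluronan link protein Hapln1 (-5.46) and Lcat, which esterifies cholesterol in lipoproteins (-5.43). Ppil6 (-5.40), Ggt7 (-5.33), the glutamine transporter Slc38a3 (-5.32), the ectonucleotidase Entpd2 (-5.31) and Disp3 (-5.21) followed. Lack of overlap between the cell types was a condition of this choice and is no result. Single libraries moved some of these sizes. Without microglia 4, Tst stood at -6.81, Sfrp5 at -6.20 and Ggt7 at -6.02, and without microglia 3, Ppp1r3g stood at -6.57. Ppil6 stood at -6.26 without microglia 5 and at -4.75 without astrocytes 5.

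Among the most abundant genes that differed, microglia were higher at Ctss, Cx3cr1, Tmsb4x and Serinc3. Tmsb4x, a thymosin that binds actin monomers, averaged 9800 ± 3452 CPM in microglia and 2208 ± 1102 CPM in astrocytes, and Serinc3 averaged 6903 ± 1776 CPM in microglia and 1269 ± 391 CPM in astrocytes. Toward astrocytes, mitochondrially encoded genes were among the most abundant.

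Receptors that signal through ITAM motifs, and the proteins below them, were higher in microglia at 15 of 15 tested genes, against 23.7% of all tested genes, with a median log2 fold change of 3.58 against -0.02. The list holds Fc receptors, which bind antibodies, the adaptors Tyrobp and Fcer1g, and kinases and phosphatases. Fcgr3 averaged 1159 ± 339 CPM in microglia and 108 ± 72.1 CPM in astrocytes (3.54 ± 0.40) and Tyrobp averaged 932 ± 366 CPM in microglia and 82.9 ± 47.5 CPM in astrocytes (3.58 ± 0.36). Fcer1g had a log2 fold change of 3.05 ± 0.37, the kinase Lyn of 2.88 ± 0.32 and the phosphatase Ptpn6 of 4.27 ± 0.46. Trem2, a lipid receptor that pairs with Tyrobp, stood at 389, 346, 503 and 463 CPM in microglia and 25.1, 30.2, 19.8 and 53.5 CPM in astrocytes, with no overlap and a fold change of 3.84 ± 0.35 on the log2 scale (edgeR adjusted p = 2.2e-10).

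Of 13 tested Toll-like receptors and adaptors, 12 were higher in microglia and 1 was lower, against 23.7% and 26.1% of all tested genes. Cd180 (3.09 ± 0.49), its partner Ly86 (4.01 ± 0.41) and Unc93b1, which carries endosomal receptors to their compartment (3.34 ± 0.38), were the most abundant on the microglia side. Tlr2 averaged 109.6 ± 41.7 CPM in microglia and 17.6 ± 9.28 CPM in astrocytes and Tlr7 averaged 116 ± 43.0 CPM in microglia and 18.5 ± 22.3 CPM in astrocytes. The exception was Tlr3, the receptor for double-stranded RNA, which stood at 172, 137, 158 and 114 CPM in microglia and 335, 231, 330.0 and 325 CPM in astrocytes. All microglia libraries lay below all astrocyte libraries at Tlr3, and the log2 fold change was -1.10 ± 0.27 (edgeR adjusted p = 0.000882). Myd88, the adaptor that most of these receptors share, was higher by 1.19 ± 0.43 (edgeR adjusted p = 0.0226), with overlap between the groups. Myd88 stood at 1.79 without astrocytes 5 and lost its call without astrocytes 2 or 4 or microglia 4 or 5 (edgeR adjusted p 0.0517 to 0.127). Without astrocytes 3, Tlr7 stood at 4.24 and Cd180 at 4.06.

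The purinergic genes split into a microglia part and an astrocyte part. Of 12 tested members, 8 were higher in microglia and 4 were lower, against 23.7% and 26.1% of all tested genes. P2ry12, the ADP receptor that directs microglial processes, stood at 2625, 2144, 5427 and 3771 CPM in microglia and 189.7, 704, 215 and 713 CPM in astrocytes, and no astrocyte library reached the lowest microglia library (log2 fold change 2.97 ± 0.43). P2ry13 (3.87 ± 0.46), P2ry6 (4.07 ± 0.40) and the ectonucleotidase Entpd1, known as CD39 (3.06 ± 0.36), were also higher. On the other side, P2ry1, another ADP receptor, stood at 10.1, 3.30, 2.96 and 1.42 CPM in microglia and 67.0, 35.2, 54.5 and 58.0 CPM in astrocytes, and the microglia libraries were all lower (log2 fold change -4.15 ± 0.63, edgeR adjusted p = 1.58e-06). The adenosine receptors divided too. Adora3 was higher in microglia at 3.87 ± 0.49, and Adora1 and Adora2b were lower at -3.81 ± 0.41 and -4.43 ± 0.47. Entpd2 averaged 4.19 ± 2.02 CPM in microglia and 144 ± 19.7 CPM in astrocytes, opposite in direction to Entpd1.

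Chemokines and their receptors were split in the same manner, with 10 of 16 tested members higher in microglia and 4 lower. The lower share was near the 26.1% of all tested genes, and the higher share lay above their 23.7%. Ccl6 averaged 428 ± 158 CPM in microglia and 33.4 ± 26.8 CPM in astrocytes (3.89 ± 0.45), Ccl3 had a log2 fold change of 4.04 ± 0.50 and Ccl4 of 3.50 ± 0.46. Lower in microglia were Cxcl14, Cxcl12, the scavenging receptor Ackr3 and Cx3cl1. Without astrocytes 3 and 5, 2 members were lower. Cxcl14 stood at 70.7, 29.7, 25.7 and 32.02 CPM in microglia and 976, 503, 858 and 579.5 CPM in astrocytes, without overlap (log2 fold change -4.39 ± 0.39, edgeR adjusted p = 1.62e-10). Without astrocytes 3, Ccl4 stood at 4.49, and without astrocytes 5, Ccl3 stood at 4.67.

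Complement genes were higher in microglia at 7 of 8 tested members, against 23.7% of all tested genes, and none was lower. C1qa, C1qb and C1qc build the recognition molecule of the classical pathway. C1qa averaged 4265 ± 289.6 CPM in microglia and 345 ± 176 CPM in astrocytes (3.65 ± 0.39) and C1qc averaged 4421 ± 1356 CPM in microglia and 419.8 ± 253 CPM in astrocytes (3.42 ± 0.41). The receptors C3ar1 (3.67 ± 0.41) and C5ar1 (4.02 ± 0.60) went the same way. C5ar1 stood at 5.14 without astrocytes 3. All 6 tested subunits and partners of the phagocyte NADPH oxidase were higher, with Cyba at 3.78 ± 0.47 and Cybb, the catalytic subunit, at 3.08 ± 0.44.

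Lysosomal genes were less uniform. Of 13 tested cathepsins and cystatins, 10 were higher in microglia and 2 were lower. Of 25 other lysosomal hydrolases and membrane proteins 13 were higher and 2 were lower. Among all tested genes 23.7% were higher and 26.1% lower, and the lower shares of both lists lay under that. Ctsd averaged 3695 ± 652 CPM in microglia and 667 ± 39.4 CPM in astrocytes (2.48 ± 0.30), and the asparaginyl protease Lgmn averaged 3290 ± 824 CPM in microglia and 421 ± 67.7 CPM in astrocytes (2.97 ± 0.33). Cst3, the secreted inhibitor cystatin C, was abundant on both sides, at 11100, 10230, 16780 and 16370 CPM in microglia and 6695, 7035, 10070 and 6241 CPM in astrocytes. The microglia libraries were above the astrocyte libraries at Cst3, and the log2 fold change was 0.86 ± 0.35 (edgeR adjusted p = 0.0388). Grn (progranulin, 2.72 ± 0.26), Cd68 (3.61 ± 0.37) and Laptm5 (3.54 ± 0.38) were higher in microglia. Lower in microglia were Ctsf (-0.93 ± 0.31), Ctso (-0.76 ± 0.31), the glycogen-degrading Gaa (-1.52 ± 0.36) and the tetraspanin Cd63, which averaged 1511 ± 165 CPM in microglia and 3748 ± 1474 CPM in astrocytes (-1.31 ± 0.30). Cst3 lost its call when any of astrocytes 2, 3 and 5 and microglia 4 and 5 was left out alone (edgeR adjusted p 0.0597 to 0.09), as did Ctso without any of astrocytes 3, 4 and 5 and microglia 3 and 5 (edgeR adjusted p 0.0654 to 0.136). Ctsf lost it without astrocytes 3 (-0.51, edgeR adjusted p = 0.164) or microglia 4 (-0.81, edgeR adjusted p = 0.0565). Psap, the precursor of the saposins, stood at 1211, 1814, 1776 and 2063 CPM in microglia and 1506, 1307, 1815 and 1516 CPM in astrocytes, and its 95% interval of -0.40 to 0.73 lay within 2-fold either way.

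Antigen presentation differed by class. All 6 tested genes of MHC class II were higher in microglia, with a median log2 fold change of 3.30, among them H2-Aa at 289 ± 136 CPM in microglia and 42.2 ± 32.5 CPM in astrocytes and H2-Ab1 at 242 ± 96.5 CPM in microglia and 20.6 ± 11.7 CPM in astrocytes. Of 8 tested class I genes, 6 were higher, with a median of 1.50, against 23.7% of all tested genes called higher. B2m, the light chain of class I, averaged 2822 ± 889 CPM in microglia and 482 ± 266 CPM in astrocytes (2.57 ± 0.36) and H2-D1 had a log2 fold change of 1.71 ± 0.32. H2-K1, another heavy chain, averaged 548 ± 138 CPM in microglia and 364 ± 62.8 CPM in astrocytes, and its difference of 0.60 ± 0.26 did not pass the test (edgeR adjusted p = 0.0552). It passed when any of astrocytes 2 and 5 and microglia 2 and 3 was left out alone (0.70 to 0.74, edgeR adjusted p 0.0181 to 0.0459). Class I heavy chains share sequence, and how reads that fit several genes were counted is not given in the sources used here.

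Border macrophages and blood leukocytes also carry CD11b, and their genes were higher in the same sort. All 8 tested border macrophage markers and all 9 tested monocyte and neutrophil markers were higher in microglia, against 23.7% of all tested genes. Without microglia 4 or without microglia 5, the border macrophage count was 5, and members that such a fit could not test are not counted. Mrc1, the mannose receptor of border macrophages, averaged 411 ± 103 CPM in microglia and 40.3 ± 20.6 CPM in astrocytes, and the summed border macrophage level was 1428, 864, 1233 and 1253 CPM in microglia and 75.3, 226, 87.5 and 308 CPM in astrocytes. S100a9, a calcium-binding protein of neutrophils, stood at 1010, 1649, 5625 and 1423 CPM in microglia and 83.7, 307, 75.9 and 272 CPM in astrocytes. Microglia 4 was the highest at S100a9, and the log2 fold change was 3.79 ± 0.55 (edgeR adjusted p = 7.65e-07). Without microglia 4 it was 3.02. The summed level of the 10 monocyte and neutrophil markers was 3028, 3711, 11550 and 3291 CPM in microglia and 273, 899.5, 177 and 789 CPM in astrocytes. Microglia 4 thus held a larger sum than the other microglia libraries. Csf3r, Mmp9 and other genes of the largest differences are also genes of neutrophils, and the part of such cells in their values was not tested.

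Transcription factors of the 2 lineages, chosen with earlier results of these data known, differed between the groups in opposite directions. Of 16 tested microglia and macrophage factors, 15 were higher in microglia, with a median log2 fold change of 3.13. Of 19 tested astroglial factors 19 were lower, with a median of -3.94. The shares of all tested genes were 23.7% higher and 26.1% lower. Maf averaged 2338 ± 534 CPM in microglia and 281 ± 142 CPM in astrocytes (3.09 ± 0.35) and Mef2c averaged 1217 ± 169 CPM in microglia and 161 ± 65.2 CPM in astrocytes (2.96 ± 0.29). Spi1, which codes for PU.1, stood at 656, 346, 345 and 399 CPM in microglia and 16.7, 65.3, 26.4 and 71.3 CPM in astrocytes, without overlap (log2 fold change 3.41 ± 0.37). Sall1, which maintains microglial identity, had the smallest difference of the 20 microglia markers, at 2.62 ± 0.31.

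On the astrocyte side, Sox9, needed for gliogenesis, stood at 232, 119, 49.3 and 71.2 CPM in microglia and 2176, 1307, 1815 and 1337 CPM in astrocytes, and every microglia library lay below (log2 fold change -3.94 ± 0.38). Id2 averaged 325 ± 68.1 CPM in microglia and 2459 ± 531 CPM in astrocytes (-2.93 ± 0.29), Id4 averaged 63.7 ± 37.4 CPM in microglia and 1209 ± 352 CPM in astrocytes (-4.41 ± 0.38) and Zbtb20 averaged 299 ± 35.1 CPM in microglia and 1067 ± 115 CPM in astrocytes (-1.84 ± 0.27). The nuclear factor I genes Nfia, Nfib and Nfix, which promote astrocyte genes, differed by -1.33 ± 0.25, -2.69 ± 0.40 and -1.69 ± 0.31. Nfia averaged 351 ± 73.0 CPM in microglia and 877 ± 156 CPM in astrocytes, the smallest difference among the 19 tested factors. Without microglia 2, Nfib stood at -3.43.

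Immediate early genes, which many stimuli induce within minutes, were higher in microglia at 19 of 19 tested members, with a median of 2.30. Fos stood at 283, 329.8, 632 and 712 CPM in microglia and 8.37, 40.2, 33.0 and 40.1 CPM in astrocytes, with microglia above astrocytes in every library (log2 fold change 4.09 ± 0.43). Zfp36 averaged 2386 ± 1230 CPM in microglia and 200.1 ± 108 CPM in astrocytes (3.63 ± 0.41), Jun averaged 1664 ± 461 CPM in microglia and 255 ± 68.8 CPM in astrocytes (2.72 ± 0.32) and Ier5 averaged 1634 ± 331 CPM in microglia and 340.0 ± 53.3 CPM in astrocytes (2.27 ± 0.27). Heat shock genes and chaperones did not share this direction, with 2 of 12 higher and 5 lower, against 23.7% and 26.1% of all tested genes. Hspa1b was higher by 1.94 ± 0.39, and Hsp90aa1 and Cryab were lower at -0.65 ± 0.25 and -2.12 ± 0.36. Hsp90aa1 lost its call when any 1 of the 8 libraries other than microglia 5 was left out (edgeR adjusted p 0.0503 to 0.108). Of the chaperones 3 were lower without microglia 4 and 2 without astrocytes 2. Of 10 tested interferon response genes 4 were higher, including Bst2 (2.81 ± 0.33) and Irf9 (1.63 ± 0.33), and none was lower. The share of all tested genes called higher was 23.7%, and 6 of the 16 interferon members were not tested. Without astrocytes 4, the interferon count was 2, where a member that could not be tested is not counted.

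Actin regulators of leukocytes were higher in microglia at 16 of 17 tested members, and integrins and adhesion genes at 11 of 15 with 1 lower. Among all tested genes 23.7% were higher and 26.1% lower. Arpc1b, a subunit of the Arp2/3 complex, averaged 678 ± 231 CPM in microglia and 103 ± 71.9 CPM in astrocytes (2.83 ± 0.37), and Cotl1 had a log2 fold change of 1.29 ± 0.25. Actb (beta-actin) averaged 4550 ± 1409 CPM in microglia and 1602 ± 199 CPM in astrocytes and was higher by 1.51 ± 0.30 (edgeR adjusted p = 7.41e-05). Selplg, the ligand of P-selectin, averaged 1638 ± 364 CPM in microglia and 108 ± 73.4 CPM in astrocytes (4.02 ± 0.42), and the integrin subunits Itgb5 and Itga6 were higher by 2.30 ± 0.32 and 1.24 ± 0.32.

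**Figure D4:**
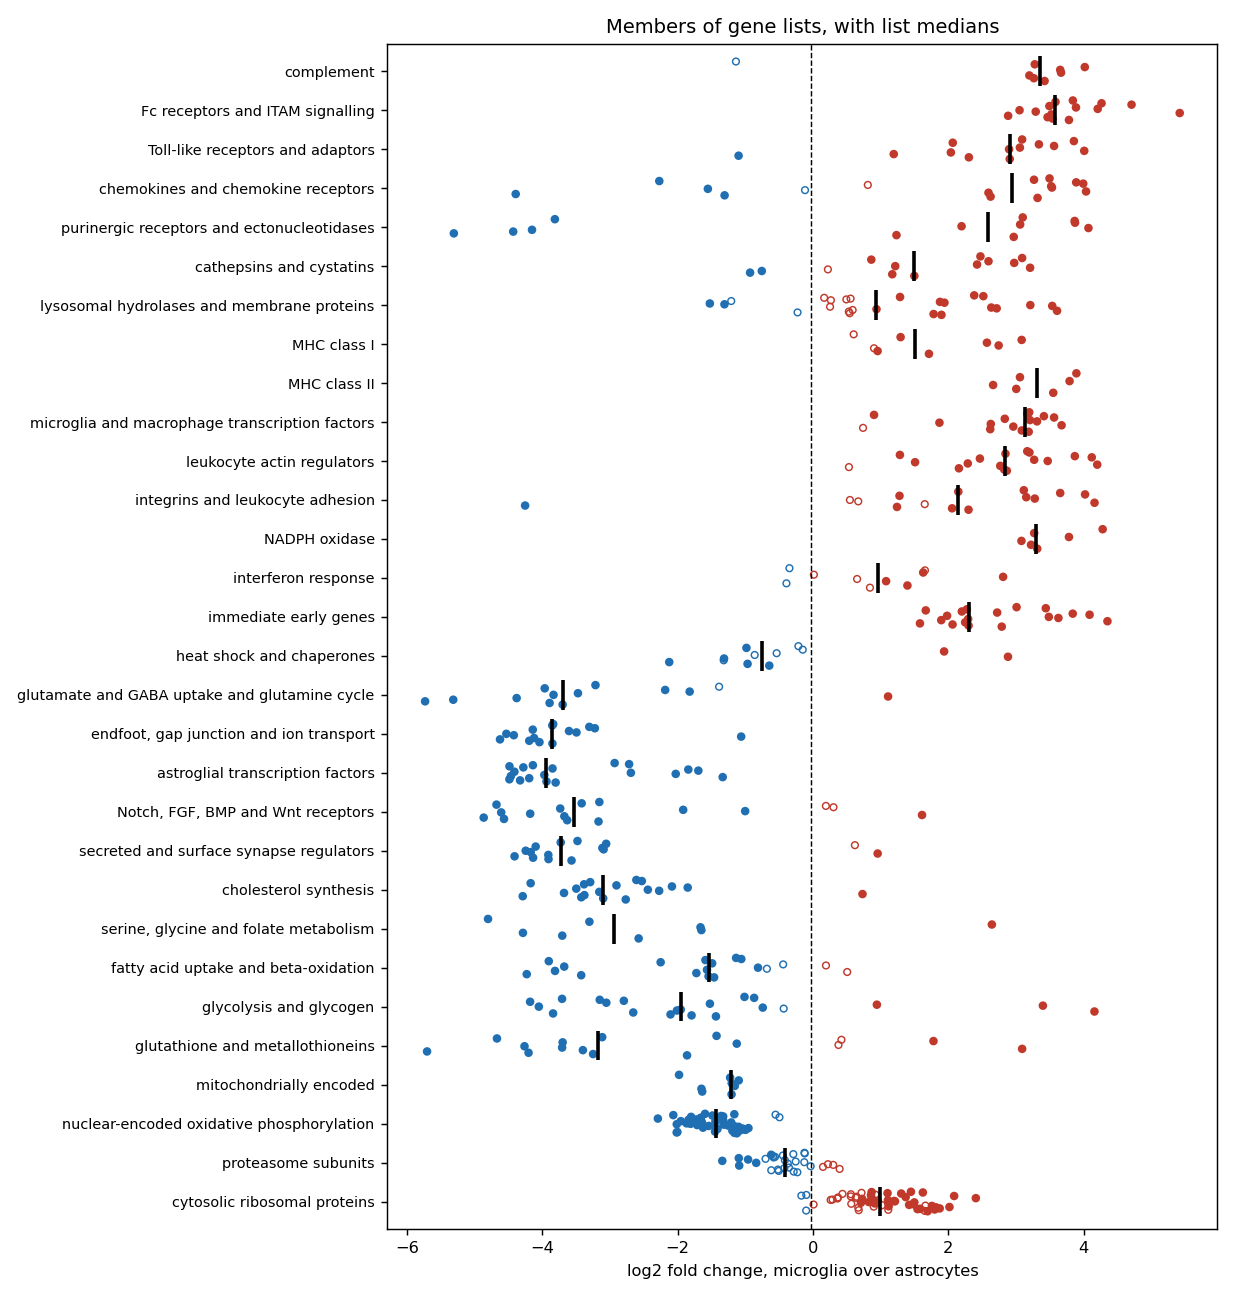
Log2 fold change of microglia over astrocytes for the tested members of 30 gene lists, 1 point per gene, with a bar at the median of each list and a dashed line at the median of all tested genes, -0.02. Lists are drawn from the microglia side at the top to the shared lists at the bottom, and filled points are genes past the adjusted p threshold of 0.05.

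Genes for the removal and recycling of neurotransmitter were lower in microglia at 11 of 13 tested members, against 26.1% of all tested genes, and higher at 1. Besides Slc1a2, the transporter Slc1a3 averaged 619 ± 191 CPM in microglia and 5724 ± 1095 CPM in astrocytes (-3.21 ± 0.40), and the GABA transporter Slc6a11 averaged 284 ± 196 CPM in microglia and 5699 ± 1550 CPM in astrocytes (-4.38 ± 0.43). Glul stood at 2322, 1979, 2171 and 2277 CPM in microglia and 8648, 7035, 9076 and 6241 CPM in astrocytes, so that the microglia libraries all lay below the astrocyte libraries (log2 fold change -1.82 ± 0.34, edgeR adjusted p = 3.41e-05).

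All 15 tested genes of endfeet, gap junctions and ion transport were lower in microglia, against 26.1% of all tested genes. Their median log2 fold change was -3.85. Gja1 (connexin 43) averaged 119 ± 56.9 CPM in microglia and 2779 ± 934 CPM in astrocytes (-4.63 ± 0.40), Mlc1 averaged 189 ± 119 CPM in microglia and 3172 ± 1142 CPM in astrocytes (-4.14 ± 0.41) and Atp1b2 averaged 197 ± 129 CPM in microglia and 3084 ± 1038 CPM in astrocytes (-4.04 ± 0.37). The water channel Aqp4 had a log2 fold change of -3.61 ± 0.37 and the potassium channel Kcnj10 of -3.84 ± 0.38.

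Receptors of the Notch, FGF, BMP and Wnt pathways were lower in microglia at 13 of 16 tested members and higher at 1. Among all tested genes these shares were 26.1% and 23.7%. Fgfr3 averaged 68.4 ± 54.6 CPM in microglia and 1383 ± 246 CPM in astrocytes (-4.57 ± 0.43), Fgfr1 averaged 46.2 ± 26.5 CPM in microglia and 534 ± 156 CPM in astrocytes (-3.74 ± 0.36) and Fzd2 averaged 22.2 ± 29.0 CPM in microglia and 336 ± 60.3 CPM in astrocytes (-4.68 ± 0.46). Without microglia 2, Fzd2 stood at -5.45. Lrp6, a co-receptor for Wnt, was higher in microglia at 122 ± 40.2 CPM in microglia and 37.2 ± 21.8 CPM in astrocytes (1.61 ± 0.34). Bmpr2, the type II receptor for BMPs, averaged 269.7 ± 14.9 CPM in microglia and 219 ± 84.9 CPM in astrocytes, and its 0.30 ± 0.29 did not pass the test (edgeR adjusted p = 0.395).

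Secreted and surface regulators of synapses were lower in microglia at 13 of 15 tested members and higher at 1. Here too the shares of all tested genes were 26.1% and 23.7%. The proteoglycan Bcan had a log2 fold change of -4.41 ± 0.44. Sparcl1 (hevin), which promotes synapse formation, stood at 909, 528, 296 and 320.2 CPM in microglia and 7532, 7538, 8251 and 7132 CPM in astrocytes. Sparc, which opposes hevin, stood at 5047, 5278, 7006 and 5052 CPM in microglia and 3627, 2211, 2475 and 3254 CPM in astrocytes. Sparc lay higher in microglia and Sparcl1 lower, neither with overlap, at 0.96 ± 0.28 (edgeR adjusted p = 0.00524) and -3.91 ± 0.39 (edgeR adjusted p = 1.04e-09). Mertk, a receptor for engulfment in both cell types, stood at 1010, 1468, 1184 and 1352 CPM in microglia and 949, 503, 924 and 892 CPM in astrocytes and did not pass the test (edgeR adjusted p = 0.11).

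Lipid synthesis and amino acid metabolism followed the astrocyte side. Of 19 tested genes of cholesterol synthesis and its control, 18 were lower in microglia, with a median of -3.10, and 1 was higher. Among all tested genes 26.1% were lower and 23.7% higher. Msmo1, a sterol demethylase subunit, averaged 181 ± 55.3 CPM in microglia and 1897 ± 521 CPM in astrocytes (-3.42 ± 0.31). Hmgcs1 averaged 113 ± 33.0 CPM in microglia and 820.1 ± 266 CPM in astrocytes (-2.90 ± 0.29) and the regulator Srebf2 had a log2 fold change of -2.44 ± 0.30. The higher one was Ebp, a sterol isomerase, at 115 ± 22.8 CPM in microglia and 70.5 ± 26.4 CPM in astrocytes (0.73 ± 0.30, edgeR adjusted p = 0.0429), with overlap. Ebp lost its call without astrocytes 3 or 4 or without microglia 3, 4 or 5 (edgeR adjusted p 0.0519 to 0.123). For serine, glycine and folate metabolism, 7 of 8 tested genes were lower, among them Psat1 (-2.58 ± 0.31), Psph (-3.30 ± 0.32) and Gldc (-4.29 ± 0.50). The mitochondrial folate enzyme Mthfd2 was the higher one, at 68.9 ± 17.2 CPM in microglia and 9.98 ± 10.4 CPM in astrocytes (2.64 ± 0.53). Fatty acid uptake and beta-oxidation genes were lower at 15 of 19, with Acsl3, an acyl-CoA synthetase, at 293 ± 216 CPM in microglia and 3959 ± 629.5 CPM in astrocytes (-3.81 ± 0.43) and Fabp7 at 110.1 ± 70.8 CPM in microglia and 1293 ± 423 CPM in astrocytes (-3.68 ± 0.40).

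Glycolysis and glycogen genes were lower in microglia at 17 of 21 tested members and higher at 3. Among all tested genes these shares were 26.1% and 23.7%. The 3 higher members were Hk2, Pfkfb3 and Slc2a5. Hk2, a hexokinase, stood at 959, 1105, 1085 and 925 CPM in microglia and 78.1, 146, 77.6 and 98.1 CPM in astrocytes, without overlap (log2 fold change 3.40 ± 0.29, edgeR adjusted p = 1.32e-10). Slc2a5, a fructose transporter, stood at 242, 462, 553 and 498 CPM in microglia and 16.7, 45.2, 19.8 and 26.8 CPM in astrocytes, again with every microglia library above (log2 fold change 4.16 ± 0.47). Pfkfb3, which sets the level of a phosphofructokinase activator, was higher by 0.94 ± 0.27 (edgeR adjusted p = 0.00397). The glucose transporter Slc2a1 was lower at 114 ± 55.8 CPM in microglia and 429 ± 126 CPM in astrocytes (-2.01 ± 0.33), and the hexokinase Hk1 at 50.1 ± 27.9 CPM in microglia and 126 ± 19.3 CPM in astrocytes (-1.52 ± 0.35). The brain glycogen phosphorylase Pygb averaged 76.5 ± 28.3 CPM in microglia and 636 ± 247 CPM in astrocytes (-3.15 ± 0.33). Glutathione and metallothionein genes were lower at 12 of 16, with Mt2 at 374 ± 263 CPM in microglia and 6700 ± 904 CPM in astrocytes (-4.20 ± 0.40), Mt1 at 498 ± 179 CPM in microglia and 4699 ± 560.2 CPM in astrocytes (-3.25 ± 0.32) and the peroxiredoxin Prdx6 at 132 ± 77.1 CPM in microglia and 1613 ± 529 CPM in astrocytes (-3.71 ± 0.34). Gpx1, a selenium peroxidase, and Txnip, an inhibitor of thioredoxin, were the 2 higher members, at 1.78 ± 0.29 and 3.09 ± 0.30.

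Respiratory chain genes of both genomes were lower in microglia by smaller factors. All 8 tested mitochondrially encoded genes were lower, with a median log2 fold change of -1.21, and so were 44 of 46 nuclear genes of oxidative phosphorylation, with a median of -1.44. mt-Nd4, a complex I subunit, stood at 13630, 7586, 12830 and 9250 CPM in microglia and 33480, 33170, 33000 and 35220 CPM in astrocytes, and mt-Cytb of complex III at 13630, 5607, 10850 and 6760 CPM in microglia and 30690, 26630, 28050 and 30310 CPM in astrocytes. Microglia lay below astrocytes at both genes in all libraries, with log2 fold changes of -1.64 ± 0.35 and -1.65 ± 0.37. Atp5g3 averaged 959 ± 431 CPM in microglia and 3137 ± 661 CPM in astrocytes (-1.72 ± 0.30), and Cox6c averaged 430.4 ± 84.7 CPM in microglia and 1519 ± 158 CPM in astrocytes (-1.80 ± 0.26). Mitochondrial transcripts held 2.57% to 5.65% of the counts in microglia libraries and 8.28% to 9.999% in astrocyte libraries. Of the 13 mitochondrially encoded members 5 were not tested, with 0 counts in microglia and 7 in astrocytes together. These percentages thus rest on the other members and are no full mitochondrial share. Cytosolic ribosomal protein genes went the other way, with 33 of 56 tested members higher in microglia, 0 lower and a median of 0.99. Among all tested genes 23.7% were higher. Rps3 averaged 679 ± 231 CPM in microglia and 363 ± 21.3 CPM in astrocytes (0.91 ± 0.28, edgeR adjusted p = 0.00663). Many ribosomal protein genes have near-identical pseudogenes, so that their counts are uncertain, and 29 of the 85 members could not be tested. Of 30 tested proteasome subunits 6 were lower, a smaller share than the 26.1% of all tested genes, and none was higher. With library totals as the scaling, which moves the median of all genes by 0.19, 41 ribosomal genes were higher and 3 proteasome subunits lower. Without astrocytes 5 the proteasome count was 3. Against a 2-fold change, 2 of the mitochondrially encoded genes, 21 of the nuclear respiratory genes and 7 of the ribosomal genes kept a call.

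Some pairs of related genes were divided between the cell types. The pairs were chosen with earlier results of these data known, so their counts do not measure how often related genes divide. Of all tested genes, 23.7% were called higher in microglia and 26.1% lower. Of 26 pairs with both genes tested, 11 had 1 gene higher and the other lower in microglia, 5 had both higher and 3 had both lower. Tgfb1, the isoform of transforming growth factor beta that myeloid cells make, stood at 35.3, 49.5, 36.5 and 39.9 CPM in microglia and 2.79, 10.1, 0 and 4.46 CPM in astrocytes, and Tgfb2 stood at 25.2, 29.7, 16.8 and 14.2 CPM in microglia and 251, 236, 198 and 156 CPM in astrocytes. Both separated without overlap, in opposite directions, at 3.70 ± 0.81 (edgeR adjusted p = 0.000304) and -3.39 ± 0.34 (edgeR adjusted p = 1.26e-09). Among integrin beta subunits, the leukocyte subunit Itgb2 was higher at 3.12 ± 0.41 and Itgb8, which activates transforming growth factor beta, was lower at -4.25 ± 0.37. Among D-type cyclins, Ccnd1 was higher at 2.09 ± 0.36 and Ccnd2 lower at -1.83 ± 0.32. Among regulators of G protein signalling, Rgs10 was higher at 3.01 ± 0.37 and Rgs20 lower at -5.48 ± 0.42. The sodium pump beta subunits Atp1b3 (0.82 ± 0.28) and Atp1b2 (-4.04 ± 0.37) and the receptor kinases Csf1r (3.26 ± 0.40) and Pdgfrb (-4.20 ± 0.37) divided in the same manner. So did the beta-tubulins Tubb5 (0.94 ± 0.31) and Tubb2b (-3.89 ± 0.38) and the alpha-tubulins Tuba1c (1.47 ± 0.44) and Tuba1a (-1.81 ± 0.28), whose copies share sequence. The remaining divided pairs were Hk2 with Hk1, Slc2a5 with Slc2a1 and Sparc with Sparcl1. Against a 2-fold change, 6 of the 11 pairs kept a call in both directions. Atp1b3 lost its call without microglia 4 (0.68, edgeR adjusted p = 0.0518) and Tubb5 without microglia 2 (0.55, edgeR adjusted p = 0.0765). Tgfb1 stood at 4.51 without astrocytes 3 and at 2.96 without astrocytes 4.

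**Figure D5:**
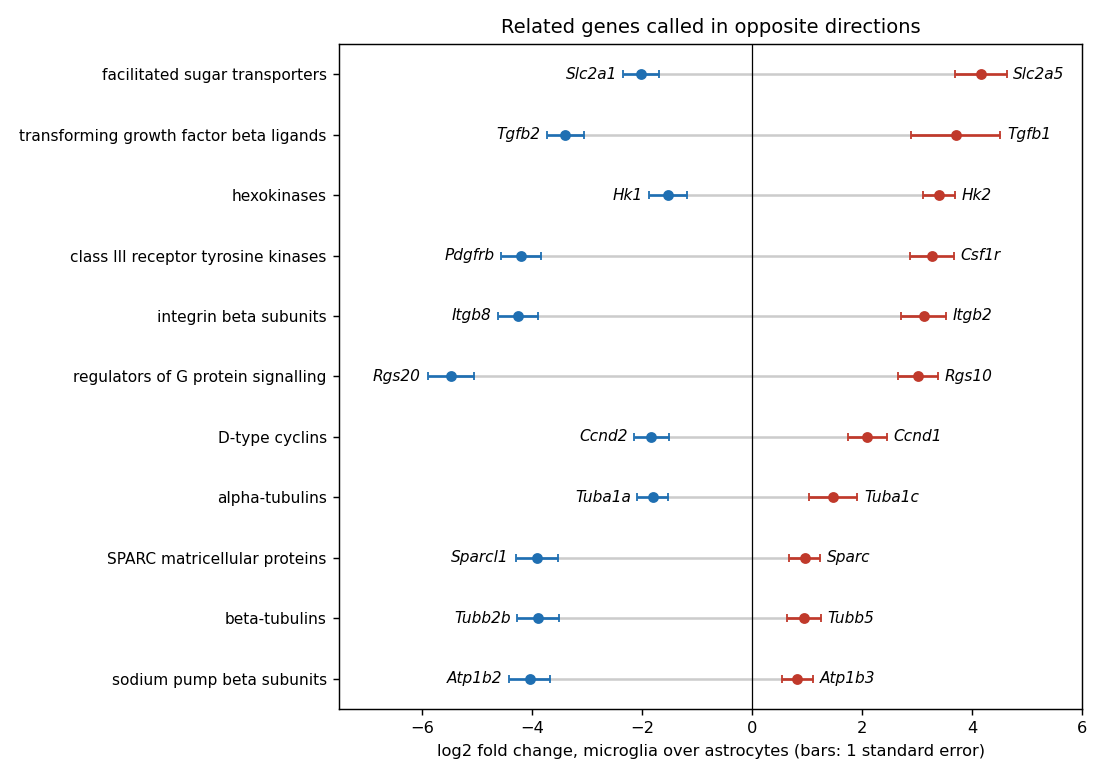
Log2 fold change of microglia over astrocytes for the 11 pairs of related genes called in opposite directions, with bars of 1 standard error and 1 row per pair. The gene higher in microglia lies right of 0 and its relative left of 0, and Rgs20 has the largest difference of the genes drawn, at -5.48.

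Ligands and their receptors were compared as 32 pairs, of which 26 had both genes tested. The counts describe these chosen pairs only. In 5 the ligand was lower in microglia and the receptor higher, in 4 the ligand was higher and the receptor lower, in 2 both were higher and in 5 both were lower. Apoe, a lipid carrier and ligand of Trem2, stood at 1161, 759, 769.7 and 854 CPM in microglia and 5022, 4874, 5610 and 4904 CPM in astrocytes, so that microglia held less in every library (log2 fold change -2.53 ± 0.34). Cx3cl1, the ligand of Cx3cr1, was lower at -1.55 ± 0.47, with overlap, at 30.3, 8.25, 8.88 and 9.25 CPM in microglia and 39.1, 40.2, 18.2 and 40.1 CPM in astrocytes. It lost its call without astrocytes 3 and 5 (-1.29, edgeR adjusted p = 0.0568), without animal 5 (-1.33, edgeR adjusted p = 0.0606) and after thinning to the smallest total (-1.62, edgeR adjusted p = 0.0632). The receptors Tgfbr1 and Tgfbr2 were higher at 3.28 ± 0.38 and 3.39 ± 0.45, opposite to Tgfb2 and with Tgfb1. Cd200, an inhibitory ligand, was lower at -1.74 ± 0.64, and its receptor Cd200r1 had 120 counts in microglia and 1 in astrocytes, a ratio of 58.8 (95% interval 10.4 to 2340), the 1 count being in astrocytes 3. Cd200 lost its call without astrocytes 5 (-1.11, edgeR adjusted p = 0.183), microglia 4 (-1.41, edgeR adjusted p = 0.102) or microglia 5 (-1.25, edgeR adjusted p = 0.135). In the other orientation, Pdgfb was higher at 3.48 ± 0.41 and Pdgfrb lower, C1qa was higher and the phagocytic receptor Megf10 lower at -3.11 ± 0.45, and Sema4d was higher at 2.50 ± 0.36 and Plxnb1 lower at -4.49 ± 0.40. Gas6 was higher at 0.88 ± 0.27 and its receptor Axl lower at -1.78 ± 0.31. Examples with ligand and receptor both lower were Fgf1 (-3.41 ± 0.64) with Fgfr3, Hbegf (-3.17 ± 0.36) with Egfr (-3.83 ± 0.48) and Jag1 (-3.16 ± 0.49) with Notch1 (-1.92 ± 0.38). For the ligands of Csf1r, Csf1 (-0.86 ± 0.39, edgeR adjusted p = 0.0704) and Il34 (-1.49 ± 0.85, edgeR adjusted p = 0.144) did not pass the test, although the receptor was higher at 3771 ± 450.2 CPM in microglia and 399 ± 225 CPM in astrocytes. Csf1 passed it without astrocytes 5 (-1.01, edgeR adjusted p = 0.0329) or microglia 5 (-1.17, edgeR adjusted p = 0.0399). Without astrocytes 2, Fgf1 stood at -2.81. Of the ligands lower in microglia with a higher receptor, Cx3cl1 averaged 34.4 CPM in astrocytes, 70.6 in input and 204.6 in sorted neurons. In the same order Cd200 averaged 30.2, 84.5 and 74.0 CPM, Tgfb2 210.3, 230.4 and 89.8 CPM and Apoe 5102, 1947 and 833 CPM. The pairs give transcript levels in sorted cells and no measure of signalling.

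Among the most abundant genes, some had intervals near no difference. The 8 with the highest mean CPM whose 95% interval lay within 2-fold either way were Son, Psap, Qk, Hspa5, Fth1, Pdia3, Cd81 and Adgrg1. Son and Adgrg1 became calls when shallow libraries were left out. Without microglia 2 and astrocytes 3 and 5, Son stood at 0.92 (edgeR adjusted p = 0.0094) and Adgrg1 at -0.73 (edgeR adjusted p = 0.0458). Without astrocytes 3 and 5 alone, Adgrg1 stood at -0.77 (edgeR adjusted p = 0.0382). Fth1, the ferritin heavy chain, stood at 1110, 726, 1678 and 1281 CPM in microglia and 1088, 1156, 1469 and 1337 CPM in astrocytes, and the ranges overlapped (interval -0.68 to 0.54). Hspa5, the chaperone of the endoplasmic reticulum, averaged 1338 ± 187 CPM in microglia and 1487 ± 356 CPM in astrocytes (interval -0.76 to 0.45). Cd81, a tetraspanin, averaged 1055 ± 298 CPM in microglia and 1209 ± 155 CPM in astrocytes (interval -0.81 to 0.42), and the RNA-binding protein Qk averaged 1529 ± 280.4 CPM in microglia and 1598 ± 139.6 CPM in astrocytes (interval -0.66 to 0.55). The splicing factor Son averaged 1821 ± 723 CPM in microglia and 1657 ± 552 CPM in astrocytes (interval -0.47 to 0.77), the disulfide isomerase Pdia3 1180 ± 212 CPM in microglia and 1118 ± 681 CPM in astrocytes (interval -0.61 to 0.76) and the adhesion receptor Adgrg1 816 ± 92.2 CPM in microglia and 1065 ± 432 CPM in astrocytes (interval -0.97 to 0.21). At Adgrg1, astrocytes 2 and 4 lay above the other 6 libraries.

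Of 87 tested markers of cell types outside both sorts, 38 (43.7%) were lower in microglia, against 26.1% of all tested genes, and 1 was higher. Without astrocytes 3 and 5, 18 of 93 (19.4%) were lower, against 22.3% of all genes tested then. Of 18 tested neuronal markers 10 were lower in microglia and none was higher, at summed levels of 666, 391, 307 and 295 CPM in microglia and 815, 1100, 772 and 1489 CPM in astrocytes. Without astrocytes 3 and 5 the count was 3, of which Map2, the dendritic protein, at -3.22 ± 0.32 with all libraries, remained a call. For endothelial markers 7 of 15 were lower, and without astrocytes 3 and 5 it was 2 with 1 higher, Pecam1. For oligodendrocyte markers 5 of 16 were lower and 1 was higher, and without those libraries 3 were lower. The higher one was Trf (transferrin), which stood at 505, 561, 474 and 562 CPM in microglia and 153, 261, 132 and 178 CPM in astrocytes, without overlap (1.57 ± 0.30, edgeR adjusted p = 5.3e-05). Of 7 tested mural cell markers 6 were lower (4 without those libraries), of 8 ependymal markers 4 (3), of 9 choroid plexus markers 1 (1), of 5 erythroid markers 2 (0) and of 5 T and NK cell markers 1 (0). The shares of choroid plexus and of T and NK cell markers lay below the 26.1% of all tested genes called lower, and that of oligodendrocyte markers lay near it. None of the 4 B cell markers was tested. With animal as a block, 3 choroid plexus markers were lower. Single libraries moved these counts too, and a member that such a fit could not test is left out of its count. Without astrocytes 5 the neuronal count was 5, without microglia 5 it was 5 and without microglia 4 it was 6. The endothelial count was 4 without any 1 of astrocytes 3 and 5 and microglia 4 and 5. The oligodendrocyte count was 3 without astrocytes 5 or without microglia 5, and 8 without astrocytes 4 or without microglia 2. The choroid plexus count was 5 without astrocytes 4 or without microglia 2 and 2 without astrocytes 2. The erythroid count was 1 without any 1 of astrocytes 3 and 5 and microglia 3, 4 and 5, and the T and NK cell count was 0 without any 1 of astrocytes 5 and microglia 3, 4 and 5. The choroid plexus markers summed to 3089, 1095, 739 and 852 CPM in microglia and 1864, 4116, 1340 and 4239 CPM in astrocytes, so that microglia 2 and astrocytes 3 and 5 were the highest of their groups. Of 4 tested markers of oligodendrocyte precursors, Olig1 and Olig2 were lower. Olig1 averaged 28.4 ± 24.8 CPM in microglia and 298 ± 49.8 CPM in astrocytes, and Olig2 stood at 20.2, 13.2, 9.87 and 8.54 CPM in microglia and 206, 106, 165 and 125 CPM in astrocytes. Astrocytes 3 and 5 were not the higher ones of their group in that list, whose sums were 111, 33.0, 43.4 and 34.2 CPM in microglia and 586, 387, 543 and 437 CPM in astrocytes. The part of other cell types in these differences was not tested.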

How the data were processed

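Brain cells were stained, sorted and made into 3' end libraries with molecular identifiers, per the labels' protocols; GRCm38.p6 is the build in the submitters' processing notes, which also list featureCounts (Subread 1.6.2), STAR and edgeR. The deposited values used are whole-number counts per protein-coding gene, and all 28936 counts of 100 or more hold 2 significant digits. The authors also deposited a total and a scaling factor, a ratio near 1, for each library, which served as an alternative here; their normalized table was not used. Which counting step removed duplicates, and how reads fitting several genes were treated, is not given in the sources used here. Symbols follow GENCODE M21 by gene ID (21950 of 22058 matched).

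Genes were kept with filterByExpr, scaled by TMM and tested with edgeR 4.0.16 (R 4.3.3, limma 3.58.1) by the two-sided quasi-likelihood test, 1 mean per group over all 16 libraries, on the contrast microglia minus astrocytes, with Benjamini-Hochberg adjustment over 9091 genes and a threshold of 0.05. The common dispersion was 0.0733 and the median standard error of a log2 fold change 0.416. A value after ± is the standard error for a log2 fold change and the SD over 4 libraries for CPM. Where a gene had 3 or fewer counts over a group, the pooled counts of both groups are set against each other with their 95% counting interval. Tested on simulated counts (8440 genes), the fit found 30% of the 2-fold and 89% of the 4-fold changes and made 5 false calls. The counts were a single draw with a common dispersion, few changed genes and otherwise the same profile in all groups. The data differ in this, so the 5 false calls are no error rate of the calls reported here.

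The animal numbers pair the libraries, since each animal gave both cell types, per the labels. Deviations from the group means correlated at -0.02 to 0.05 between libraries of the same animal. Alternatives were other scaling and filters, the 8 libraries alone, animal as a block, DESeq2 1.42.0, a test against a 2-fold change, thinning to the smallest total, redrawn rounding and libraries left out.

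The members, the 44 gene lists and the pairs of related genes were chosen with earlier results of these data known. Named by rule were the sort and marker genes, the 15 largest differences in each direction at 50 CPM or more without overlap, the 5 most abundant called genes in each direction at 2-fold or more and the 8 most abundant genes whose interval lay within 2-fold; list members and pairs are named as examples, and some genes of the rule and of the lists are not reported here. The list entries Trbc2 and Aldoa had no unambiguous match. Promoters are those of RefSeq on GRCm38.p6.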

Additional observations from a re-analysis of the deposited data

Results flagged for a closer look

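In groups of 4 libraries, 30 of 440 values set apart the highest or the lowest library by a gap past Dixon's 95% critical value, and chance sets apart about 1 in 20. Microglia 2, the shallowest of the 8 libraries, held 15 of them. The next lowest or highest library of the same group follows each value in brackets.

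Among microglia libraries, microglia 2 was the highest at 10 genes that were lower in microglia than in astrocytes. It held 30.28 CPM of the ligand Cx3cl1 [9.25], 70.66 of Cxcl14 [32.02], 85.81 of the receptor Fgfr1 [34.63], 65.62 of the Wnt receptor Fzd2 [9.895], 5.047 of Hapln1 [1.649], 5.047 of Hhatl [1.974], 30.28 of Megf10 [8.881], 247.3 of Prdx6 [98.95], 40.38 of Rgs20 [13.19] and 65.62 of Olig1 [16.78]. The values of Hapln1 and Hhatl are 1 count each. The summed level of oligodendrocyte precursor markers was 111 CPM in it [43.42], and that of choroid plexus markers was 3089 CPM [1095]. It was also the highest at the myeloid genes Spi1, with 656.2 CPM [398.5], Elf4, with 171.6 CPM [82.46], and Itgb5, with 1565 CPM [759.8]. Microglia 4 was the highest at S100a9, with 5625 CPM [1649], at Sparc, with 7006 CPM [5278], and in the summed level of monocyte and neutrophil markers, 11550 CPM [3711]. Microglia 3 was the lowest at Bmpr2, with 247.4 CPM [276.3].

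Among astrocyte libraries, astrocytes 5 was the lowest at the proteoglycan Bcan, with 579.5 CPM [1032], and at Gas6, with 178.3 CPM [256.3], and the highest at Cd200, with 66.87 CPM [20.1], Csf3r, with 26.75 CPM [0], and Jag1, with 111.4 CPM [52.8]. Astrocytes 3 was the lowest at Hmgcs1, with 422.1 CPM [936.1], Mertk, with 502.5 CPM [891.6], and Tlr3, with 231.2 CPM [325.4], and the highest at Cd200r1, with 5.025 CPM [0], which is 1 count. Astrocytes 4 was the lowest at Cmtm7, with 3.30 CPM or 2 counts [13.37], and at Cx3cl1, with 18.15 CPM [39.06].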

How the results depend on the processing

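Every call that was made under another setting and under the one reported had the same sign, for all 23 alternatives and all genes tested. Only genes called in both fits enter that comparison, so it does not show lost calls. With animal as a block in the 8 libraries alone, 3047 of the 4529 calls were made again. Leaving out 1 library at a time gave 1856 to 2484 genes higher in microglia and 2063 to 2529 lower. The counts moved by over 1.5 times under 2 settings. A test against a 2-fold change left 1066 genes higher and 1452 lower, and 6 pairs of related genes in opposite directions. Every library thinned to the smallest total gave 937 higher and 1016 lower among the 3841 genes it could test. DESeq2 gave 2273 higher and 2566 lower. Library totals as the scaling moved the median of all genes by 0.19 and made 55.3% of the calls higher in microglia, against 47.6%. Of 211 named genes that were tested, 33 changed their call or their sign under at least 1 setting. A gene that a setting could not test was not counted as changed there. In the counts of list members such a gene was left out, so that a smaller count need not mean a failed test.

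With animal as a block in the 16 libraries, 2012 genes were higher and 2247 lower, and with the block in the 8 libraries alone 1475 were higher and 1585 lower. In the 16 libraries the block changed the call of 1 named gene, Ugt8a (edgeR adjusted p = 0.051), and of no other named gene.

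The sign turned at 6 named genes, of which Ebp and Ugt8a were called, and the cause was not tested. The log2 fold change of Ebp was -0.01 after thinning, and that of Ugt8a was 0.0341 without astrocytes 3 and 5. Fth1 stood at 0.0979 with library totals and at 0.0244 with no filter, and ran from -0.216 to 0.128 when 1 library was left out. Hspa5 stood at 0.0419 with library totals and ran from -0.246 to 0.0598. Pdia3 stood at -0.454 without astrocytes 3 and 5, at -0.466 without microglia 2 and astrocytes 3 and 5, and at -0.181 without animal 5, and ran from -0.138 to 0.554. Qk stood at 0.131 with library totals, at 0.0413 with no filter and at 0.0954 without microglia 2 and astrocytes 3 and 5, and ran from -0.131 to 0.0815.

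Depth limits the smaller differences, since microglia 2 and astrocytes 3 and 5 hold 191236, 211087 and 247660 counts. These libraries also carry the most transcripts of the other sort, and depth and carried transcripts cannot be told apart in them. Counts of 100 or more are rounded, and redrawing them within their rounding changed no call of a named gene. P-values of the reported fit rest on 16 libraries from 4 animals of 1 sex and strain, and it treats the libraries of an animal as independent.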
